A study of Mus musculus with 9 samples.

Results

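The cytosolic ribosomal protein genes are the protein-coding genes for the proteins of the large and small subunits of the cytosolic ribosome. They were chosen by name, as every gene annotated as protein-coding and called Rpl or Rps with a number and the usual suffix letters, plus Rpsa, Rplp0, Rplp1 and Rplp2. Kinases of the Rps6k type were left out. The rule found 83 of the 54532 genes in the table, namely 48 large subunit genes, 32 small subunit genes and 3 genes of the P stalk. Of these, 82 were among the 14086 genes that reached 1 FPKM (fragments counted, scaled to gene length and library size) in at least 3 of the 9 libraries. The only one that did not was Rpl10l, a retrogene known from testis, which had 0 reads in every library. A count of 0 with a limit of 3 reads allows up to 0.182 FPKM.

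The RNA came from flat mounts of choroid and retina of C57BL/6 mice, sequenced as 3 groups of 3 libraries. The first group was titled BetP-Gel@Ran and taken 3 months after an injection into the vitreous of the eye; its treatment field names the gel alone, and the series concerns this gel as a carrier for ranibizumab, an antibody fragment against vascular endothelial growth factor. The second group was labelled CNV, the usual abbreviation for choroidal neovascularization, and titled wet-AMD, for wet age-related macular degeneration. The third group was untreated mice. The labels give no age, no time point for the CNV and untreated samples and no method by which CNV was made, and whether CNV was present in the BetP-Gel@Ran mice is not stated. It is not stated either that each library is a different animal. The p-values therefore cover only differences among these samples, whose spread may be technical.

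Ribosomal proteins are made in nearly equal amounts and assemble with ribosomal RNA in the nucleolus. Their mRNAs belong to the most abundant of any cell, and most begin with a terminal oligopyrimidine (TOP) tract, a C at the cap followed by a run of C and T letters, through which mTORC1 and the protein Larp1 control their translation. Myc and RNA polymerase I activity set the supply of new ribosomes, and growing or activated cells raise it. A few ribosomal proteins have a second gene that is used in muscle, testis or stressed cells. The family has also left many near-identical processed copies in the mouse genome, so reads from these genes are hard to place.

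The annotated starts are shown because the TOP tract is the shared sequence of the family. A tract was searched on the gene's own strand as a C followed by at least 4 letters each C or T. The letter before that C was not looked at, so a tract by this rule may lie inside a longer run of C and T. RefSeq promoter sequences (GRCm38.p6) were matched by symbol for 63 of the 83 genes. In 13 of them (20.6%) a tract by this rule began at the annotated start, against 3.01% of all 27025 genes in the promoter table. Within 10 bases of the start it began in 39 (61.9%), against 34.4% of all genes. The windows hold 20 bases before the start and 15 from it onward, 5′ to 3′, and capitals mark the tract that begins nearest to the start within 10 bases of it. The first 4 are among the genes with the largest rises in CNV samples, and the other 4 among those with the smallest changes.
Rps27, chr3:90213634-90213668, minus strand: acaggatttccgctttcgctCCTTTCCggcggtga
Rpl41, chr10:128549154-128549188, minus strand: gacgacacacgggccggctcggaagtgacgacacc
Rpl34, chr3:130730384-130730418, minus strand: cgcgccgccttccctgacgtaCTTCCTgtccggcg
Rpl36a, chrX:134585634-134585668, plus strand: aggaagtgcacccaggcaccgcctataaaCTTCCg
Rpl7a, chr2:26910787-26910821, plus strand: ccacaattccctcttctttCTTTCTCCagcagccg
Rpl24, chr16:55966255-55966289, plus strand: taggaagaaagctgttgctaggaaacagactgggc
Rplp0, chr5:115559447-115559481, plus strand: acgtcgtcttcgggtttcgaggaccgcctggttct
Rpl13, chr8:123102330-123102364, plus strand: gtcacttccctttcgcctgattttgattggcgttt
By this rule Rps27 holds a tract at its annotated start, Rpl34 and Rpl7a within 1 base of it, and Rpl36a 9 bases after it. In Rps27 and Rpl7a the run of C and T letters already starts before the capitals. No tract begins within 10 bases of the annotated start of Rpl41, Rpl24, Rplp0 and Rpl13, although the Rpl13 window holds one further upstream; this says only where these letters lie. Among tested members with a tract within 10 bases, 29 of 38 rose in CNV samples, with a median log2 fold change of 0.42. Among those without one 14 of 24 rose, with a median of 0.27, where 22.5% of all tested genes were called higher. No such counts are given for other genes with or without a tract, and the difference was not tested.

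The second pair of sequences shows how alike a gene and its copy can be, since the counts of Rps3a1 turn on it. Rps3a1, on chromosome 3, encodes a small subunit protein near the mRNA exit, and Rps3a2, on chromosome 14, is annotated as a processed pseudogene. Over 792 aligned bases of GENCODE M21 transcripts (GRCm38) they differ at 4. The window holds bases 609 to 668, counted from the coding start of Rps3a1 and from the transcript start of Rps3a2, and capitals mark the 2 bases that differ in it.
Rps3a1: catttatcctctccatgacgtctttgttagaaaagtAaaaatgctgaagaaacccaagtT
Rps3a2: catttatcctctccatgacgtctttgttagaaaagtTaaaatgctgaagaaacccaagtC

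Between 16990118 and 18753737 reads per library lay on genes, with 13164 to 13481 genes at 1 FPKM or more. Pearson's r of log2 values between 2 libraries, taken over genes as a description, was 0.981 to 0.990 within groups and 0.912 to 0.979 between groups. Markers showed RNA of rods, which belong to the labelled retina, and RNA of lens and eye surface, from beyond the labelled tissue. All 18 rod photoreceptor markers were tested, and their summed level was 2947 to 3801 FPKM in BetP-Gel@Ran, 2162 to 2757 in CNV and 5832 to 6358 in untreated libraries. For lens markers the sum was 1582 to 5677 FPKM in BetP-Gel@Ran, 22.7 to 139 in CNV and 1198 to 25114 in untreated libraries, and for corneal and surface epithelium markers 14855 to 18268, 10273 to 12271 and 20486 to 23714 FPKM in the same order. The library kit does not mark strand, so where genes overlap, reads from either strand count alike.

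The ribosomal protein genes took a larger share of the RNA in CNV samples than in either other group. They held 11.92%, 11.02% and 11.12% of the FPKM sum in the 3 BetP-Gel@Ran libraries, 13.67%, 13.39% and 12.87% in the 3 CNV libraries, and 10.04%, 10.10% and 10.05% in the 3 untreated libraries. The 3 groups did not overlap, with BetP-Gel@Ran between the other 2. As a share of reads, which weights long genes more, the ranges were 7.37 to 7.80% in BetP-Gel@Ran, 8.76 to 9.34% in CNV and 6.57 to 7.06% in untreated libraries, again without overlap. Reads of mitochondrially encoded genes, 3.06 to 4.02% in BetP-Gel@Ran, 2.96 to 3.16% in CNV and 2.94 to 3.68% in untreated libraries, overlapped between groups. A share depends on all other genes in the sum, and in bulk RNA fewer cells of a type and less RNA per cell cannot be told apart.

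**Figure D1:**
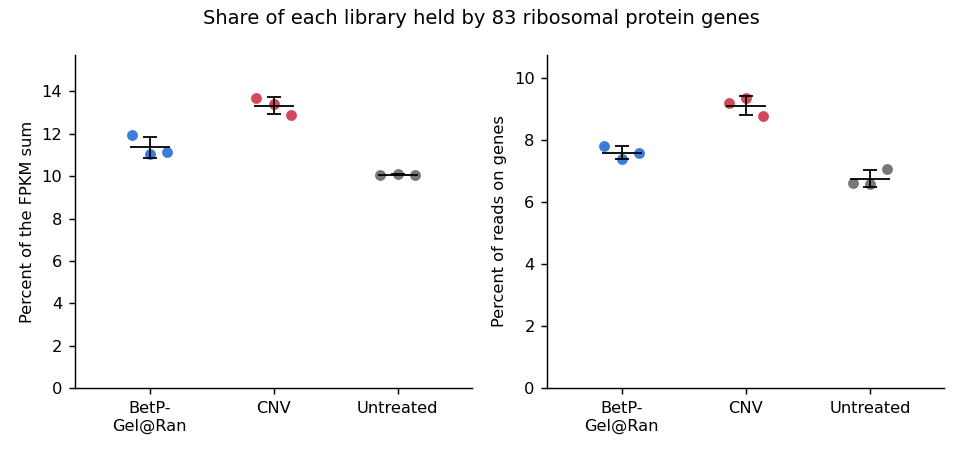
Share of each library held by the 83 genes, as percent of the FPKM sum (left) and of reads on genes (right); points are libraries, and bars the mean ± SD of 3. The CNV points (12.87 to 13.67% of the FPKM sum) lie above the BetP-Gel@Ran points (11.02 to 11.92%), which lie above the untreated points (10.04 to 10.10%).

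Levels were high and their order was nearly the same in every library. The median over the 82 tested genes of the mean over 9 libraries was 489 FPKM, against 5.34 FPKM for all tested genes. Averaged over libraries, 10 genes were above 1000 FPKM, 64 lay between 100 and 1000, and 9 were below 100 with Rpl10l included. Spearman's rho of the levels between any 2 libraries was 0.958 to 0.996 across these genes. FPKM divides by the deposited gene length, which ran from 383 nucleotides for Rpl36 to 6270 for Rps15a, so the order of levels depends on it.

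The 4 most abundant members were Rplp1, Rplp0, Rpl41 and Rps15. Rplp1, an acidic stalk protein that recruits elongation factors, had 4468, 3753 and 3889 FPKM in BetP-Gel@Ran, 5197, 5063 and 4781 in CNV and 4070, 3674 and 4546 in untreated libraries. Every CNV library was above every other library, but the difference from untreated samples was 0.30 ± 0.11 (log2 fold change ± SE) with an adjusted p of 0.0564 (limma, Benjamini-Hochberg), short of the threshold of 0.05. Rps15, a protein of the head of the small subunit, had 1750, 1557 and 1567 FPKM in BetP-Gel@Ran, 1846, 1980 and 1886 in CNV and 1647, 1487 and 1734 in untreated libraries. Its CNV libraries did not overlap the others either, and it too missed the threshold against untreated samples (0.23 ± 0.09, limma adjusted p = 0.071).

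In CNV samples against untreated ones, most ribosomal protein genes rose together by a modest amount. Of the 82 tested, 52 rose and 1, Rpl3l, fell, while 29 did not pass the test; of all 14086 genes, 22.5% were called higher and 22.1% lower. The median log2 fold change of the 82 was 0.35, a 1.28-fold difference, against 0.01 for all tested genes, and 78 of the 82 values were above 0. In 59 genes every CNV library exceeded every untreated one, which held for 27.7% of all genes. The count of 52 was 29 without untreated library 1, 31 without untreated library 2 and 32 without CNV library 2, and the calls without these libraries were all among the 53 made with every library, while the median stayed between 0.32 and 0.41 on leaving out any single library.

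Large subunit genes accounted for 30 of the rises (of 47 tested, median 0.33) and small subunit genes for 22 (of 32, median 0.41). The largest rise was in Rps27, a small zinc-finger protein of the small subunit (chr3:90212522-90213651, minus strand, mm10). It had 892, 1035 and 949 FPKM in CNV libraries, against 482, 483 and 622 FPKM in untreated libraries. No library overlapped, and the change was 0.86 ± 0.17 on the log2 scale (limma adjusted p = 0.0030). Rpl41, the shortest ribosomal protein (chr10:128548114-128549305), had 2585, 2638 and 1979 FPKM in CNV libraries, against 1366, 1370 and 1495.4 FPKM in untreated libraries. It rose by 0.76 ± 0.15 (limma adjusted p = 0.0027).

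Rpl34, a large subunit protein (chr3:130726831-130730398), had 399.7, 436 and 412 FPKM in CNV libraries, against 235, 224 and 288 FPKM in untreated libraries, a rise of 0.74 ± 0.10 (limma adjusted p = 0.00050). Rpl36a, an X-linked large subunit gene (chrX:134585654-134588062), had 319, 332 and 287 FPKM in CNV libraries, against 169, 184 and 225 FPKM in untreated libraries, a rise of 0.71 ± 0.12 (limma adjusted p = 0.0012). Rps24, whose human counterpart is mutated in some families with Diamond-Blackfan anaemia, had 279, 331 and 335 FPKM in CNV libraries, against 183, 180 and 223 FPKM in untreated libraries, a rise of 0.69 ± 0.11 (limma adjusted p = 0.0012). None of the 3 overlapped between the groups, and each kept its call in every alternative fit.

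Further rises of at least 0.5 on the log2 scale were seen in Rpl39, which lines the exit tunnel of the large subunit, and in Rpl12, Rpl17, Rps15a, Rpl22, Rpl38, Rps12, Rps26, Rpl13a and Rps27l. The 29 genes that did not pass included Rps3a1, Rpl7a, Rpl8, Rpl24, Rpl3, Rplp0, Rpl13, Rpl4, Rpl28, Rpl39l, Rpl7, Rplp2, Rpl27, Rpl6, Rps4x, Rpl18, Rpl23a, Rps15, Rpl10, Rpl36, Rps9, Rps29, Rplp1, Rps10, Rps27a and Rps28. Rpl3, at the peptidyl transferase centre, had 436, 492 and 445 FPKM in CNV libraries, against 457, 426 and 460 FPKM in untreated libraries, a difference of 0.03 ± 0.09 (limma adjusted p = 0.81). Rps27a, which makes a fusion of ubiquitin with a small subunit protein, varied most within groups, with 233, 190 and 512 FPKM in CNV libraries and 389, 145 and 170 FPKM in untreated libraries; it is given here because of that spread, seen in the values.

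Markers of macrophages and neutrophils were also higher in CNV than in untreated samples. All 19 microglia and macrophage markers were called higher in CNV samples, where 22.5% of all genes were. Their summed level was 982 to 1240 FPKM in BetP-Gel@Ran, 1787 to 2667 in CNV and 497 to 534 in untreated libraries. That is the same order of groups as for the ribosomal protein share. Neutrophil markers summed to 43.2 to 172 FPKM in BetP-Gel@Ran, 500.2 to 1045 in CNV and 41.3 to 62.6 in untreated libraries. Unlike the ribosomal protein share, these sums overlapped between BetP-Gel@Ran and untreated libraries. All 9 tested neutrophil markers were called higher in CNV against untreated samples, and Mpo was at 0 in every library. Lymphocyte markers, of which only 1 of 12 was tested, summed to no more than 9.68 FPKM in any library. Erythroid markers summed to 3407 to 11701, 6421 to 19410 and 3508 to 5451 FPKM in BetP-Gel@Ran, CNV and untreated libraries. The part of these cells in the rise of the ribosomal protein genes was not tested.

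In BetP-Gel@Ran samples against CNV ones, the family lay lower as a whole, though few single genes passed. Of the 82 genes, 0 rose, 9 fell and 73 did not pass, where 5.81% of all genes were called higher and 8.27% lower. By the unadjusted p under 0.05, 1 was higher and 38 were lower, and the share of all genes at that threshold is not given here. Limma voom on recovered reads called 0 of the 82 higher and 14 lower, where it called 1033 of all 14086 genes higher and 1319 lower. The median log2 fold change was -0.23, against 0.00 for all tested genes, and 81 of 82 values were below 0. In 41 genes every BetP-Gel@Ran library was below every CNV library, which held for 18.6% of all genes. The count of 9 rests on few libraries, being 0 without CNV library 1, without CNV library 2 or without BetP-Gel@Ran library 2, 1 without BetP-Gel@Ran library 3, 15 without BetP-Gel@Ran library 1 and 17 without CNV library 3. It was 4 in a fit of only these 2 groups, 1 without the filter on low values and 27 with voom scaled to library totals.

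The 9 genes that fell were Rpl41, Rpl13a, Rpl22l1, Rps2, Rps16, Rps27l, Rps19, Rps9 and Rps18, of which 8, all but Rps9, had risen in CNV against untreated samples; the 2 comparisons share the CNV libraries. Rpl41 had 1810, 1339 and 1440 FPKM in BetP-Gel@Ran libraries, against 2585, 2638 and 1979 FPKM in CNV libraries, a change of -0.65 ± 0.15 on the log2 scale (limma adjusted p = 0.023). Rpl13a, which in human monocytes also leaves the ribosome to repress inflammatory mRNAs, had 15.5, 14.8 and 16.6 FPKM in BetP-Gel@Ran libraries, against 25.5, 27.2 and 19.2 FPKM in CNV libraries, a change of -0.57 ± 0.12 (limma adjusted p = 0.018). As 90.3% of the coding bases of Rpl13a lie inside another same-strand gene, Gm45713, its level and change are uncertain. Rps2, a small subunit protein at the mRNA entry, had 824, 712 and 772 FPKM in BetP-Gel@Ran libraries, against 1161, 1162 and 951 FPKM in CNV libraries, a change of -0.50 ± 0.12 (limma adjusted p = 0.025). In these 3 genes the groups did not overlap. Each call was lost on leaving out CNV library 1, CNV library 2 or BetP-Gel@Ran library 2, and those of Rpl41 and Rps2 also without BetP-Gel@Ran library 3, with limma adjusted p of up to 0.0912 for Rpl41, 0.0760 for Rpl13a and 0.0976 for Rps2.

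In BetP-Gel@Ran samples against untreated ones, few ribosomal protein genes passed, and those mostly rose. Of the 82 genes 10 rose, where 16.1% of all genes were called higher, and 2 fell, Rpl3l and Rps3a1, where 18.1% of all genes were called lower. The median log2 fold change was 0.09, against -0.01 for all tested genes, and 59 values were above 0. In 22 genes every BetP-Gel@Ran library exceeded every untreated one, which held for 25.3% of all genes, and in 2 every one was below, which held for 25.4%. All 10 genes that rose had also risen in CNV samples, in a comparison with the same untreated libraries. The BetP-Gel@Ran mean lay between the CNV and untreated means for 60 of the 82 genes, was the lowest of the 3 for 22 and the highest for 0. The count of 10 was 3 without BetP-Gel@Ran library 3, without untreated library 1 or without untreated library 2. It was 29 with FPKM divided by its sum or quantile normalization, and 23 with voom scaled to library totals.

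The 10 genes were Rps27, Rps24, Rpl36a, Rpl34, Rpl26, Rpl39, Rps15a, Rpl12, Rps25 and Rpl22. Rps24 had 266, 298 and 303 FPKM in BetP-Gel@Ran libraries, against 183, 180 and 223 FPKM in untreated libraries, a rise of 0.57 ± 0.11 (limma adjusted p = 0.0053). Rpl36a had 257, 261 and 293 FPKM in BetP-Gel@Ran libraries, against 169, 184 and 225 FPKM in untreated libraries, a rise of 0.50 ± 0.12 (limma adjusted p = 0.011). The 2 groups did not overlap in either gene, and both calls held in every alternative fit. Rpl34 had 331, 310 and 346 FPKM in BetP-Gel@Ran libraries, against 235, 224 and 288 FPKM in untreated libraries, a rise of 0.41 ± 0.10 (limma adjusted p = 0.016). Its call was lost without BetP-Gel@Ran library 3, without untreated library 1 or without untreated library 2, with an adjusted p of up to 0.0639.

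**Figure D2:**
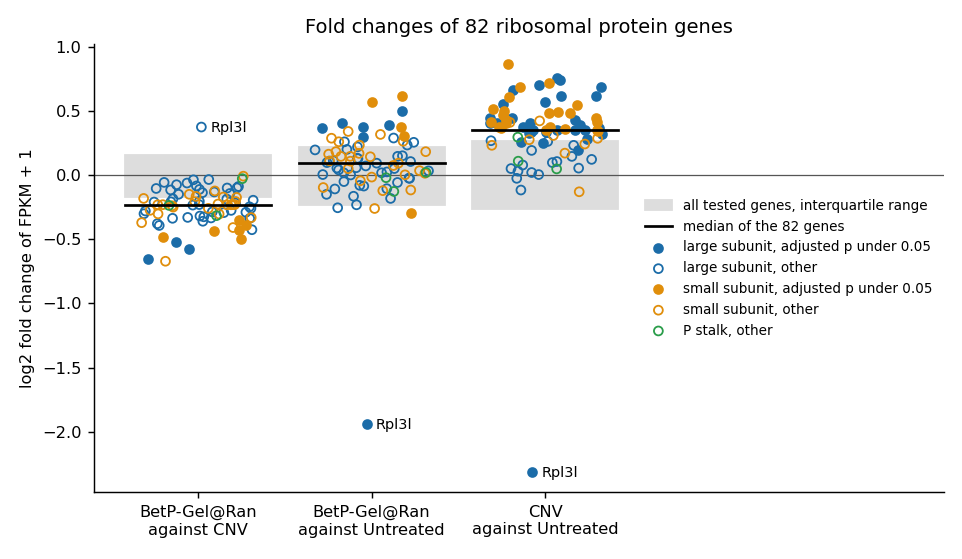
log2 fold changes of FPKM + 1 for the 82 tested genes in the 3 comparisons; filled points have a limma adjusted p under 0.05, black lines are medians of the 82 genes (-0.23, 0.09 and 0.35 from left to right) and grey boxes the interquartile range of all tested genes. Rpl3l stands alone at -1.94 and -2.31 against untreated samples.

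The second genes of ribosomal proteins did not move as a set. Rpl3l, which replaces Rpl3 in heart and skeletal muscle (chr17:24727820-24736143, plus strand), had 12.1, 12.1 and 10.5 FPKM in BetP-Gel@Ran, 7.77, 6.90 and 12.04 in CNV and 46.7, 45.2 and 49.5 in untreated libraries. Both other groups lay wholly below the untreated one, with a log2 change of -1.94 ± 0.16 in BetP-Gel@Ran (limma adjusted p = 7.2e-05) and -2.31 ± 0.16 in CNV (limma adjusted p = 1.5e-05). BetP-Gel@Ran and CNV libraries overlapped. Skeletal muscle markers moved with it, as all 15 tested of 18 were called lower in both groups against untreated samples, and their sum was 1677 to 1984 FPKM in BetP-Gel@Ran, 1151 to 1968 in CNV and 6497 to 7176 in untreated libraries, with Tnnc2 at 0 in every library. Their part in the fall of Rpl3l was not tested. Over coding sequence Rpl3l and Rpl3 share 74.3% of aligned bases.

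Rps27l, a second gene of Rps27 that p53 can induce, had 207, 172 and 199.6 FPKM in BetP-Gel@Ran, 281, 252 and 249 in CNV and 144, 153 and 176 in untreated libraries. It rose by 0.72 ± 0.11 in CNV against untreated samples (limma adjusted p = 0.00061), without overlap, and changed by -0.43 ± 0.11 in BetP-Gel@Ran against CNV (limma adjusted p = 0.029). The call against CNV was lost without the filter on low values and without CNV library 1 or 2 or BetP-Gel@Ran library 2 or 3 (limma adjusted p of up to 0.107). Rpl22l1, which can stand in for Rpl22, had 55.1, 42.7 and 47.7 FPKM in BetP-Gel@Ran, 68.1, 71.1 and 69.3 in CNV and 49.2, 47.5 and 66.0 in untreated libraries. The CNV libraries were the highest, with a change of 0.37 ± 0.13 against untreated samples (limma adjusted p = 0.047) that 9 of 18 alternative fits did not call (limma adjusted p from 0.0049 to 0.15).

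Rpl22, an RNA-binding large subunit protein needed for T cell development in mice, had 221, 203 and 222 FPKM in BetP-Gel@Ran, 274, 264 and 244 in CNV and 165, 166 and 194 in untreated libraries. It rose in CNV by 0.57 ± 0.09 (limma adjusted p = 0.00093) and in BetP-Gel@Ran by 0.30 ± 0.09 (limma adjusted p = 0.031) against untreated samples, with no overlap between any of the 3 groups. The call in BetP-Gel@Ran was lost in 6 of 18 alternative fits, among them those without BetP-Gel@Ran library 1 or 3 or untreated library 1 or 2 (limma adjusted p of up to 0.105). Rpl7l1, a relative of Rpl7 that acts in large subunit assembly, had 26.0, 24.4 and 24.96 FPKM in BetP-Gel@Ran, 27.4, 27.7 and 26.0 in CNV and 23.4, 23.5 and 23.3 in untreated libraries. Its rise of 0.20 ± 0.06 in CNV (limma adjusted p = 0.026) was the smallest among the 52, and was not called in a fit of only the 2 groups or without CNV library 1 or 2 or any 1 untreated library (limma adjusted p of up to 0.0771). Rpl7 itself had 626, 674 and 677 FPKM in CNV libraries, against 583, 560 and 701 FPKM in untreated libraries, and did not pass, at 0.11 ± 0.11 (limma adjusted p = 0.46).

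Rpl39l, a second gene of Rpl39 that is abundant in testis, had 9.55, 6.47 and 8.43 FPKM in BetP-Gel@Ran, 12.5, 9.33 and 8.52 in CNV and 9.85, 9.76 and 8.28 in untreated libraries. The groups overlapped, and none of its 3 comparisons passed. Rpl39 had 574, 556 and 561 FPKM in BetP-Gel@Ran, 697, 735 and 639 in CNV and 397, 418 and 490 in untreated libraries, with no overlap between groups. It rose by 0.67 ± 0.10 in CNV (limma adjusted p = 0.00065) and by 0.38 ± 0.10 in BetP-Gel@Ran (limma adjusted p = 0.017) against untreated samples. The call in BetP-Gel@Ran was lost without its library 3 or without untreated library 1 or 2 (limma adjusted p of up to 0.0680). Rpl10, which takes part in subunit joining and whose second gene is Rpl10l, had 635, 767 and 741 FPKM in CNV libraries, against 592, 545 and 647 FPKM in untreated libraries, which overlapped (0.26 ± 0.10, limma adjusted p = 0.061). Rps4x, the X-linked gene of its protein, had 947, 1107 and 1099 FPKM in CNV libraries, against 959, 848 and 991 FPKM in untreated libraries (0.17 ± 0.10, limma adjusted p = 0.20).

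**Figure D3:**
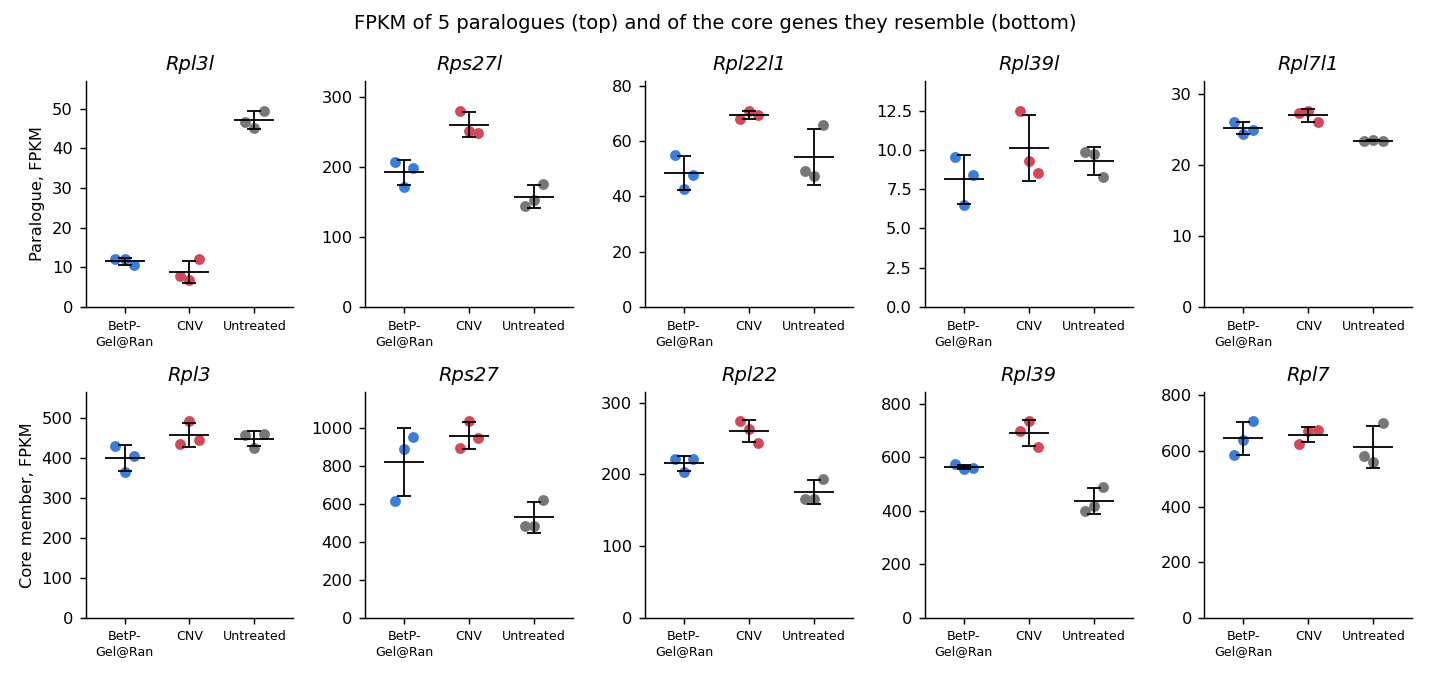
FPKM in each library of 5 second genes (top row) and of the core genes they resemble (bottom row); points are libraries, and bars the mean ± SD of 3. Rpl3l is lower in BetP-Gel@Ran and CNV (6.90 to 12.1 FPKM) than in untreated libraries (45.2 to 49.5 FPKM). Every other gene shown is highest on average in CNV, though in Rpl39l, Rpl3 and Rpl7 the CNV libraries overlap the untreated ones.

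None of the 3 genes of the P stalk, the flexible arm on which elongation factors act, was called in any of the 3 comparisons in the limma fit reported here. By the unadjusted p under 0.05, 1 of them, Rplp1, was higher in CNV than in untreated samples. At that threshold 2 were lower in BetP-Gel@Ran than in CNV samples, and the share of all genes is not given here. Limma voom called Rplp1 higher in CNV than in untreated samples (adjusted p = 0.0399) and nothing else among the 3 genes. In all, 6 of 18 alternative fits called Rplp1 in CNV against untreated samples (limma adjusted p from 0.00338 to 0.178). In BetP-Gel@Ran against CNV, 2 of 18 called it (limma adjusted p from 0.0287 to 0.228). Rplp0 and Rplp2 were called in no alternative fit. Rplp0, the base of the stalk, had 2089, 1973 and 2168 FPKM in BetP-Gel@Ran, 1915, 2302 and 2146 in CNV and 2101, 1857 and 2192 in untreated libraries. The groups overlapped, and the difference between CNV and untreated samples was 0.05 ± 0.10 (limma adjusted p = 0.73). Rplp2, the partner of Rplp1, had 299.7, 232 and 253 FPKM in BetP-Gel@Ran, 301.3, 320 and 298 in CNV and 288, 266 and 298 in untreated libraries, and also overlapped.

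The size of the rise in CNV samples went with the length of the coding sequence. Across the 77 tested genes without the second genes, Pearson's r of the log2 coding length with the log2 fold change was -0.53 and Spearman's rho -0.47, as a description over genes that share libraries and do not count as replicates. Of all 82, 7 of 10 genes with up to 300 coding nucleotides rose (median 0.46), as did 21 of 28 above 300 and up to 450 (0.40), 12 of 18 above 450 and up to 600 (0.39), and 12 of 26 longer ones (0.22). Other protein-coding genes of the same lengths had medians of 0.01, 0.04, -0.03 and 0.00, and 22.6%, 26.0%, 21.5% and 23.2% of them were called higher. The level of a gene showed little relation with its change (Spearman's rho -0.13 over the 77 genes). In BetP-Gel@Ran against CNV, r with the log2 coding length was 0.37 over the 77 genes, and other protein-coding genes of up to 300 nucleotides also had a median below 0, at -0.12.

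**Figure D4:**
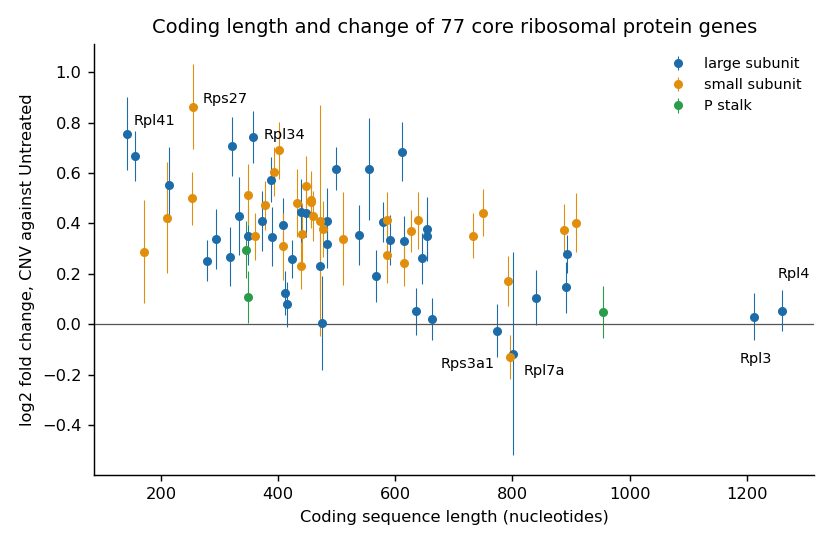
Coding length in nucleotides against the log2 fold change in CNV over untreated samples for the 77 genes without the second genes; points are genes, and bars the SE of the fit. Short genes such as Rpl41 (0.76) and Rps27 (0.86) lie high, and the longest, Rpl3 (0.03) and Rpl4 (0.05), lie near 0.

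A part of the reads of this family was counted on near-identical copies. A search of coding sequences found 532 copies of 73 members, with at least 95% identity over at least 80% of the coding sequence. Copies took 7.54 to 8.21% of the reads of members and copies together in BetP-Gel@Ran, 7.22 to 7.74% in CNV and 6.52 to 6.97% in untreated ones. Copies held more than 10% of the reads for 23 members, over 50% for 3, Rps10, Rpl24 and Rpl17, and under 1% for 27. Of 232 copies that were tested, 54 (23.3%, near the 22.5% of all genes) were called higher and 0 lower in CNV against untreated samples, with a median of 0.25. In BetP-Gel@Ran against CNV 0 were called higher and 13 lower (5.60%, against 8.27% of all genes). Reads of a member and its copies cannot be placed firmly, so these counts are not independent of those of the members.

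Rps3a1 was the named member whose direction turned when its copies were added. It had 1304, 1252 and 1297 FPKM in BetP-Gel@Ran, 1396, 1516 and 1412 in CNV and 1543, 1490 and 1702 in untreated libraries. Taken alone it fell in BetP-Gel@Ran against untreated samples, with a log2 change of -0.30 ± 0.09 (limma adjusted p = 0.026), and was at -0.13 ± 0.09 in CNV (limma adjusted p = 0.25). Copies aside, the call was also lost with FPKM divided by its sum, with quantile normalization, and without BetP-Gel@Ran library 2 or 3 or untreated library 1 or 3. Its copy Rps3a2, shown above, had 425, 454 and 429 FPKM in BetP-Gel@Ran, 504, 525 and 524 in CNV and 10.3, 8.96 and 9.86 in untreated libraries. The copy was thus far higher in every BetP-Gel@Ran and CNV library than in any untreated one, by 5.35 on the log2 scale in BetP-Gel@Ran (limma adjusted p = 5.5e-10) and by 5.60 in CNV (limma adjusted p = 3.6e-10).

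Another copy of Rps3a1, Gm7600, differed from it at 14 of 789 aligned bases and showed the same order of groups. It had 34.0, 86.6 and 53.5 FPKM in BetP-Gel@Ran, 74.4, 46.8 and 72.0 in CNV and 1.95, 1.29 and 2.05 in untreated libraries. Copies held 23.2 to 27.2% of the reads of Rps3a1 and its copies in BetP-Gel@Ran, 24.8 to 26.7% in CNV and 1.16 to 1.39% in untreated libraries. With the copies added, Rps3a1 stood at 1713 ± 12.8 FPKM in BetP-Gel@Ran, 1943 ± 64.5 in CNV and 1599 ± 111 in untreated libraries (SD, n = 3). Both signs then turned, to 0.28 in CNV (limma adjusted p = 0.020) and 0.10 in BetP-Gel@Ran (limma adjusted p = 0.37) against untreated samples. The same strain is given for all 3 groups, and the source of the reads on Rps3a2 was not tested.

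**Figure D5:**
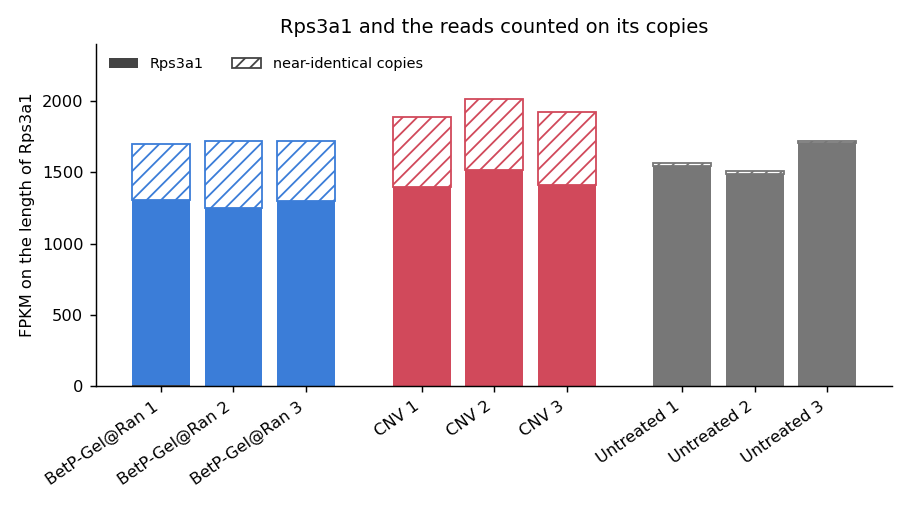
FPKM of Rps3a1 (filled) and of the reads on its near-identical copies (hatched), both on the length of Rps3a1, in each library. The hatched part is 23.2 to 27.2% of the bar in BetP-Gel@Ran and CNV libraries and 1.16 to 1.39% in untreated ones.

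Rps27 and Rps27rt have the same bases over all 255 coding positions, so their reads can trade places. Rps27 had 616, 890 and 951 FPKM in BetP-Gel@Ran libraries, and Rps27rt had 1000.04, 494 and 382 FPKM in the same libraries. The library lowest for Rps27 was highest for its copy. With copies added, the SD of Rps27 in BetP-Gel@Ran was 60.4 FPKM around a mean of 1044, against 179 around 819 without them, and the change against untreated samples was 0.76 in place of 0.61 (limma adjusted p = 0.0014 in place of 0.021). Without copies, that call was lost in 5 of 18 alternative fits, among them those without BetP-Gel@Ran library 2 or 3 or untreated library 1 or 2 (limma adjusted p of up to 0.0814). Adding copies gained a call in CNV against untreated samples for members including Rps3a1 and Rps10, in BetP-Gel@Ran against CNV for Rpl15 and Rpl34, and in BetP-Gel@Ran against untreated for Rpl17, Rps26 and Rps12, where Rps3a1 lost its call.

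The 3 lowest members apart from the second genes, named here from their values, shared a feature of the annotation. Rps10, a small subunit protein with 0.87 to 1.41 FPKM in BetP-Gel@Ran, 1.23 to 1.99 in CNV and 0.51 to 1.34 in untreated libraries, has 80.1% of its coding bases inside a same-strand gene, RPS10-NUDT3. Rpl24, at 5.33 FPKM on average, has 83.4% of them inside Gm28037, and Rpl13a, at 17.98 FPKM, has 90.3% inside Gm45713. Reads that fall in 2 genes can be left uncounted, and the setting for this was not given in the labels. Rpl23a, with 55.3% of its coding bases under the opposite-strand gene Tlcd1, had 631 FPKM. For Rps10, 99.4% of the reads of gene and copies lay on the copies, chiefly Rps10-ps2, which had 716, 877 and 856 FPKM in BetP-Gel@Ran, 790, 999 and 948 in CNV and 737, 591 and 779 in untreated libraries. Levels and changes of these 3 members are therefore uncertain.

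In the lists of ribosome biogenesis, RNA polymerase I, mitochondrial ribosome, translation factor, stress response and mTORC1 genes, read from the same fit, a smaller part was called higher in CNV samples than among the ribosomal protein genes, and the difference was not tested. Of 3 ribosomal genes outside the naming rule, 2 rose in CNV samples (66.7%, against 22.5% of all genes). They were Fau, which encodes a fusion of a ubiquitin-like protein with a small subunit protein, and Rack1, a scaffold on the small subunit. In BetP-Gel@Ran against CNV samples 2 of the 3 fell (66.7%, against 8.27% of all genes), Fau among them. Against untreated samples 1 of the 3 fell in BetP-Gel@Ran (33.3%, against 18.1% of all genes). Of 30 ribosome biogenesis factors, 6 rose (20%, near the 22.5% of all genes) and 0 fell in CNV samples, with a median of 0.15. In BetP-Gel@Ran against CNV 0 of them rose and 8 fell (26.7%, against 8.27% of all genes), with a median of -0.28. Those with the smallest p in CNV were Gnl3 (nucleostemin), at 5.17 ± 0.885 FPKM in CNV and 2.97 ± 0.149 in untreated samples (SD, n = 3 each), Wdr43, Nop58 and Ncl (nucleolin). Of 12 RNA polymerase I subunits and factors, 2 rose and 2 fell in CNV samples (16.7% each, against 22.5% and 22.1% of all genes). Of 77 mitochondrial ribosomal proteins, which make up the separate ribosome of mitochondria, 6 rose (7.79%) and 19 fell (24.7%) in CNV samples. In BetP-Gel@Ran against untreated samples 0 of them rose and 39 fell (50.6%, against 18.1% of all genes), with a median of -0.25.

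Of 21 elongation factors and other mRNAs known for a TOP tract, 5 rose (23.8%, near the 22.5% of all genes) and 2 fell (9.52%, against 22.1%) in CNV samples, with a median of 0.09. The rises included Npm1, a nucleolar chaperone, with 78.7, 71.5 and 78.7 FPKM in BetP-Gel@Ran, 152, 158 and 108 in CNV and 66.2, 77.7 and 82.1 in untreated libraries, and Pabpc1, the poly(A)-binding protein. Npm1 rose by 0.86 ± 0.15 in CNV (limma adjusted p = 0.0013) and changed by -0.84 ± 0.15 in BetP-Gel@Ran against CNV (limma adjusted p = 0.011), with CNV libraries above all others. Of 13 initiation factors, 2 rose and 2 fell in CNV samples (15.4% each), and of 15 genes of the integrated stress response, 5 rose (33.3%) and 2 fell (13.3%).

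Of 23 genes of mTORC1 and Myc control, 7 rose (30.4%, against 22.5% of all genes) and 5 fell (21.7%, near the 22.1% of all genes) in CNV samples. Myc, the transcription factor that drives ribosome production, had 3.78, 2.71 and 3.77 FPKM in BetP-Gel@Ran, 8.25, 7.91 and 6.67 in CNV and 3.49, 3.54 and 3.08 in untreated libraries. It rose by 0.97 ± 0.12 in CNV (limma adjusted p = 0.00021) and changed by -0.97 ± 0.12 in BetP-Gel@Ran against CNV (limma adjusted p = 0.0031), with no CNV library overlapping another group. Mxd1, an antagonist of Myc, also rose in CNV by 0.78 ± 0.10 (limma adjusted p = 0.00029), and Sesn1, which restrains mTORC1, fell to 14.2 ± 1.54 FPKM in CNV samples, against 21.5 ± 1.01 FPKM in untreated samples (SD, n = 3 each; limma adjusted p = 0.00053). Whether these genes bear on the ribosomal protein genes was not tested.

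The genes outside the family whose pattern was most like it were found by Pearson's r over the 9 libraries with the mean z-score of the 82 genes, as a description. They were Arhgdib (0.987), a GDP-dissociation inhibitor abundant in blood cells, Npc2 (0.987), a lysosomal cholesterol carrier, Layn (0.985), a hyaluronan receptor, Rfc4 (0.981), a clamp loader of DNA replication, and Cyp7b1 (0.981), an oxysterol hydroxylase. The libraries shared their depth and group structure in this measure.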

How the data were processed

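RNA-seq of 9 libraries was available as 1 table of FPKM values per gene, which the authors deposited already scaled between samples. HTSeq 0.6.0 and the build mm10 are named in the submitters' processing notes; no aligner is named there. The deposited FPKM times gene length, divided by 1 step per library, gave whole reads (within 0.05) for all values, and libraries held 16990118 to 18753737 reads. Values were tested as log2(FPKM + 1) with limma 3.58.1 (trend and robust options, R 4.3.3) in 1 fit over 9 libraries, on the 14086 genes that reached 1 FPKM in 3 or more libraries, with Benjamini-Hochberg adjustment over all of them and a threshold of 0.05. A fold change on this scale understates that of low genes. The 3 comparisons share groups. The fit was tested on simulated data with known changes. Over the 3 comparisons it recovered 80 to 85% of log2 changes of 1 but only 42 to 49% of changes of 0.5. Of its calls, 3.60 to 5.30% were false, and smaller changes were not simulated. Far fewer genes were changed in the simulation than were called in these data. The adjustment over all genes therefore acted differently there, and these rates cannot be carried over to the 3 comparisons.

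Copies were found with blastn 2.17.0 among GENCODE M21 transcripts, and 81 of the 83 genes have the same coordinates there. The members and gene lists were chosen with earlier results of these data known. Every member was counted. Values by library were given for the 4 largest called rises and falls in each comparison, the 4 most abundant members, the P stalk, the second genes and their core genes, and from each other list for at most 4 genes with the smallest p. Alternatives were other pseudocounts, filters, scalings and tests, a replicate block, each library left out, and copies summed with members. Adding copies by sequence was chosen after seeing the data. Protein sequences were not used here, and values of a few genes are not reported here.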

Additional observations from a re-analysis of the deposited data

How the results depend on the processing

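In CNV against untreated samples, the count of 52 higher genes ranged from 29 to 51 on leaving out 1 library, lowest without untreated library 1 (29), untreated library 2 (31) and CNV library 2 (32), and the median of 0.35 was 0.45 with voom scaled to library totals, which also moved the median of all genes to 0.10 and the share of calls that were higher to 62.5%, against 50.4%. In BetP-Gel@Ran against CNV, the count of 9 lower genes was 1 without the filter, 4 in a fit of only the 2 groups, 14 with voom, 27 with voom on library totals, and 0 to 17 on leaving out 1 library; the count of 0 higher was 0 to 1, with 1 only without CNV library 3. Its median of -0.23 was -0.15 with quantile normalization. Without the filter 30.8% of all calls were higher, against 41.3%. In BetP-Gel@Ran against untreated samples, the count of 10 higher genes was 6 without the filter, 29 with FPKM divided by its sum, 29 with quantile normalization, 23 with voom on library totals, and 3 to 13 on leaving out 1 library. The 2 lower genes were 1 with FPKM divided by its sum, with quantile normalization and with copies summed by name or by sequence, and 1 to 3 on leaving out 1 library. Its median of 0.09 was 0.18 and 0.20 under the first 2 of these scalings; 63.6% of all calls were higher with FPKM divided by its sum and 60.2% with voom on library totals, against 47.1%. The causes of these moves were not tested. The share of the FPKM sum was 12.4% in BetP-Gel@Ran, 14.2% in CNV and 11.2% in untreated samples when lens, muscle and mitochondrially encoded genes were left out of the sum. Rps3a1 turned from -0.13 to 0.24 in CNV and from -0.30 to 0.0596 in BetP-Gel@Ran against untreated samples with copies summed by name, and to 0.28 and 0.10 by sequence. Of the values for named genes under the alternatives, 1136 kept direction and side of the threshold, 65 lost and 37 gained a call, and 4 reversed.

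The replicate numbers did not pair the samples: deviations of same-numbered libraries correlated from -0.148 to 0.0841, and 2 of 9 libraries correlated best with their own number. With the replicate block, 50 genes were higher and 1 lower in CNV against untreated samples, 0 higher and 7 lower in BetP-Gel@Ran against CNV, and 9 higher and 2 lower in BetP-Gel@Ran against untreated samples. With 3 libraries a group, members that did not pass may still differ.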
